A study of Mus musculus with 25 samples.

Results

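Wild type livers under long-term metformin were compared with untreated wild type livers of the same age, using 7 of the 25 mice of a study that also sequenced mice labelled Ncoa5+/-. All mice were C57BL/6. The 3 treated wild type mice drank water with metformin, a dose near 250 mg/kg each day, starting when they were 8 weeks old and lasting 31 weeks, and the 4 untreated wild type mice did not. Both groups were 39 weeks old, and each library was made from the liver RNA of a single mouse. Levels are FPKM, a measure of expression corrected for transcript length and library size, and the comparison rests on the 11441 loci whose average over the 17 mice of this age reached 1 FPKM. The other 10 of them, labelled Ncoa5+/- (5 untreated and 5 given metformin at the same dose), entered the fit as groups of their own and are used below for the same contrast in another genotype. The labels do not give the sex of the mice. The Y-linked gene Ddx3y was present in all 7 wild type livers, at 13.6, 19.7, 12.2 and 12.1 FPKM without and 12.5, 14.7 and 14.1 FPKM with metformin.

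Metformin is a biguanide used to lower blood glucose. It enters hepatocytes through organic cation transporters, is known to inhibit complex I of the mitochondrial respiratory chain, and lowers glucose output by the liver, in part through the energy sensor AMPK. Translation, mitochondrial respiration and the integrated stress response, in which the factor ATF4 induces amino acid and secreted stress genes, are among the processes it is known to touch.

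No locus passed the test. With limma and Benjamini-Hochberg adjustment, 0 of 11441 loci (0%) had an adjusted p under 0.05, and the smallest adjusted p was 0.155. At an unadjusted p under 0.05 there were 549 loci higher (4.8%) and 521 lower (4.55%) with metformin. In 500 loci (4.37%) all 3 treated mice lay above all 4 untreated mice, and in 453 (3.96%) all 3 lay below. The median log2 fold change was -0.01, and 47.4% of loci had a positive one. All differences below are therefore values that did not pass the adjusted test, and a list of genes is described by its counts and its median beside these shares. With each library shifted to the same median level, the unadjusted counts became 673 higher and 402 lower. Without treated mouse 1 the count of higher loci was 360. Fold changes are differences of log2(FPKM + 1), metformin minus untreated, which understates the change of low genes. The ± after a log2 fold change is its standard error and after a level the SD. That standard error comes from the fit of all 17 mice, whose 4 groups share an estimate of the spread. It is therefore not the spread of the wild type mice alone. Wild type values compare 4 untreated with 3 treated mice, and values of mice labelled Ncoa5+/- compare 5 with 5.

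Over the 7 libraries FPKM sums ran from 861399 to 1200168 and loci above 0 from 18930 to 19816. The 50 highest loci took 57.1% to 60.7% of the sum in untreated and 43.7% to 54.8% in treated livers, so this share was lower in every treated mouse. Its part in the results was not tested beyond the scaling alternatives, and under quantile normalization the median of the ribosomal protein genes described below was 0.23. Read counts were not used here, depth in reads is therefore unknown, and precision is judged from the variation among mice alone. Pearson correlations of log2 levels were 0.936 to 0.969 between an untreated and a treated liver, 0.942 to 0.963 among untreated livers and 0.952 to 0.963 among treated livers. Untreated mouse 2 stood apart in stress genes, as described below. Of 13 genes that define hepatocytes, 7 were tested with a median log2 fold change of 0.01, 3 were left out because they were listed at 0 in a whole group, 2 lay below the filter and 1 shared its locus with another gene. Alb (albumin) was listed at 0 in every mouse. The targeted gene of the wider study, Ncoa5 (chromosome 2, 165000275 to 165034867), stood at 4.28, 4.68, 4.12 and 3.6 FPKM in the untreated and 3.68, 3.58 and 6.64 FPKM in the treated wild type mice (two-sided exact permutation p = 0.8; the smallest p this design allows is 0.0286). Positions here and below are those of the deposited files, on GRCm38.p5.

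Genes for cytosolic ribosomal proteins stood higher in treated livers. Of 64 on the list, 46 had a locus of their own and were tested. Of these, 44 had a positive log2 fold change, 31 an unadjusted p under 0.05 and 35 lay higher in all 3 treated mice than in all 4 untreated ones, with 0 lower by either measure. Their median log2 fold change was 0.31, beside -0.01 for all loci. The summed level was 22182, 24584, 24199.5 and 24786 FPKM in the untreated mice and 33476, 33227 and 28025 FPKM in the treated mice, so the groups did not overlap, and treated mouse 3 was the lowest of the treated. The other 18 list members were not tested, 17 of them because their locus carries more than 1 gene name.

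Many ribosomal protein mRNAs begin with a run of pyrimidines at the transcription start, a feature known to tie their translation to growth signals. The start regions of the genes Rps27 and Rpl38 are shown because these had the largest log2 fold changes of the list. They run from 30 bases before to 30 bases after the RefSeq start (GRCm38.p6, Rps27 on the minus strand at chr3:90213619-90213678 and Rpl38 on the plus strand at chr11:114668550-114668609), 5′ to 3′, with the letters CTTTCC in capitals.
Rps27: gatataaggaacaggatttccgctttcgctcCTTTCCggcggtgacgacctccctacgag
Rpl38: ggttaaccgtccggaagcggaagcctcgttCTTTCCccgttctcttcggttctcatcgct
CTTTCC was searched on the gene's strand from 10 bases before to 30 bases after the start. It was found in 7 of the 35 tested ribosomal protein genes with an entry in the promoter table (20%) and in 2.06% of all 27025 genes there. The 7 were Rpl10a, Rpl15, Rpl18, Rpl28, Rpl35, Rpl38 and Rps27. They include Rpl35, whose log2 fold change was negative, and do not include Rps21, Rps24 or Rpl26, described below as higher. A link between the letters and the fold changes was not tested. A match describes the letters in this window and not a working element.

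Small-subunit genes are given first. Rps27 (chromosome 3, 90212522 to 90213651) stood at 1669, 1921, 1749 and 2044 FPKM in the untreated mice and at 3435, 3632 and 2515 FPKM in the treated mice, a ratio of means of 1.73 and a log2 fold change of 0.78 ± 0.17 (adjusted p = 0.264). Rps21 (chromosome 2, 180257377 to 180258445) stood at 916, 1051, 1014 and 1115 FPKM without and 1602, 1731 and 1405 FPKM with metformin (0.62 ± 0.13, adjusted p = 0.264). Both genes were higher in every treated mouse than in any untreated mouse, with treated mouse 3 nearest to the untreated range. Rps24 showed 443, 471, 456 and 496 FPKM against 668, 710.0 and 591 FPKM (0.49 ± 0.11). Rps15a, a small-subunit gene outside the list, showed 181, 198, 190.5 and 206 FPKM against 287, 302 and 241 FPKM (0.51 ± 0.12).

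Large-subunit genes took the same direction. Rpl38 (chromosome 11, 114668524 to 114672331) stood at 1023, 1109.9, 1111 and 1202 FPKM without and 1813, 2120.3 and 1401 FPKM with metformin (0.66 ± 0.15, adjusted p = 0.264). Rpl26 (chromosome 11, 68901583 to 68906989) stood at 454, 466, 450.2 and 429.9 FPKM against 695, 721 and 551 FPKM (0.53 ± 0.11). In both, the treated mice lay above all untreated mice. The members with a negative log2 fold change were Rplp0, which encodes a protein of the ribosomal stalk, at 331, 284, 396 and 368 FPKM against 296, 269 and 289 FPKM (-0.27 ± 0.15), and Rpl35 (-0.05 ± 0.13). The pseudogenes Rpl36a-ps2 (0.90 ± 0.19) and Rpl14-ps1 (0.62 ± 0.13) lay above the untreated range as well. Ribosomal protein genes have many near-identical processed copies, so how the authors' counting divided reads among them is uncertain for each of these values.

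**Figure D1:**
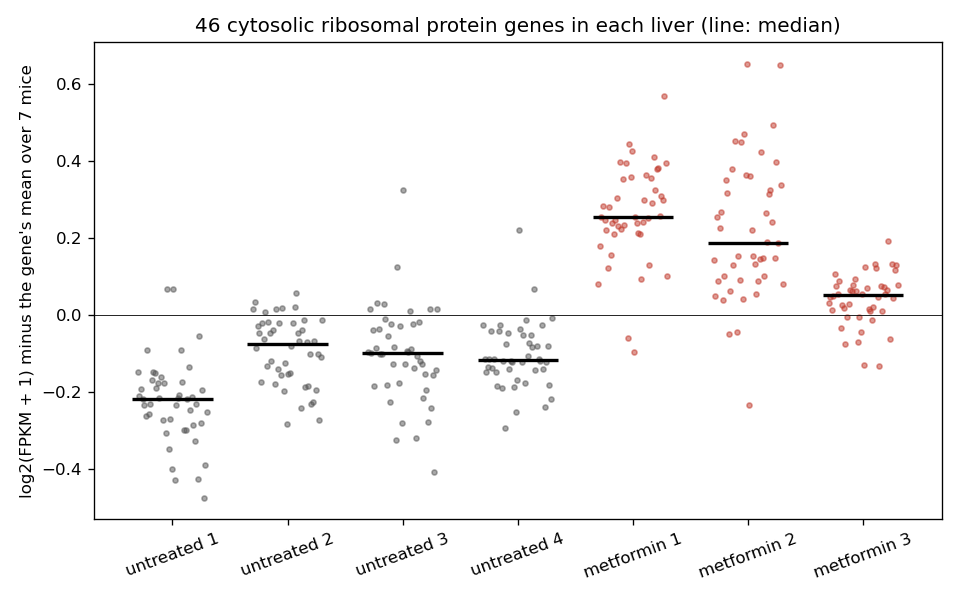
Each point is 1 of 46 cytosolic ribosomal protein genes in 1 liver, as log2(FPKM + 1) minus that gene's mean over the 7 mice, and the line is the median of a liver. The medians lie at -0.22, -0.08, -0.10 and -0.12 in the untreated mice and at 0.25, 0.19 and 0.05 in the treated mice.

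Transcript length moved with this result. The median length of the longest transcript was 1140 bases for the tested ribosomal protein genes. Over 9195 protein-coding loci the median log2 fold change was 0.07 in the tenth with the shortest transcripts (0.06 without the ribosomal protein genes) and -0.04 in the tenth with the longest, and Spearman's rho across these genes, which are not independent replicates, was -0.15. Treated mice 1 and 2 were the highest libraries for short transcripts, at median deviations of 0.12 and 0.07, and treated mouse 3 was not, at -0.03. With each library's trend on length removed, an alternative chosen after the data were seen, 28 of 46 ribosomal protein genes had an unadjusted p under 0.05 in the higher direction and the median was 0.24. RNA quality was not given in the sources used here, and its part in this result was not tested.

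**Figure D2:**
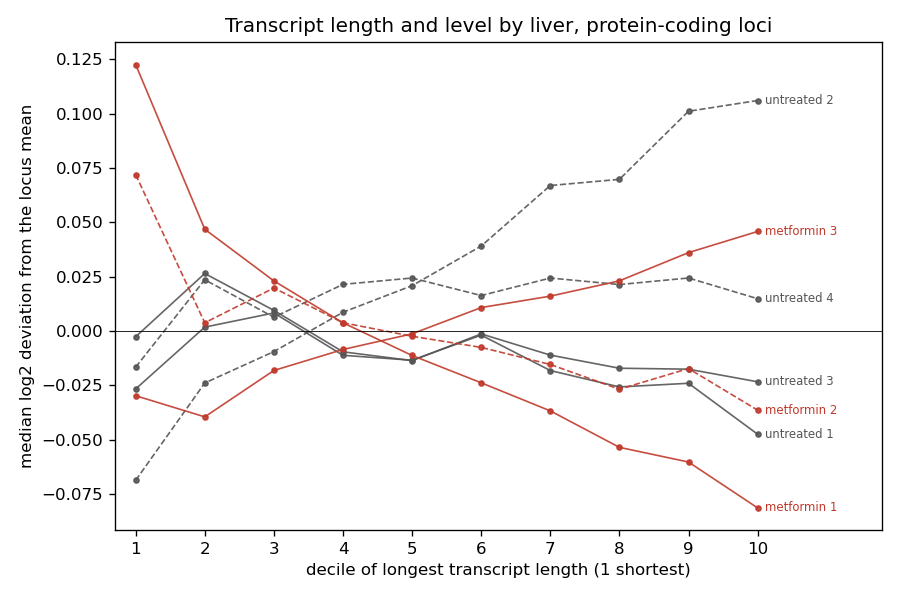
Protein-coding loci are split into 10 groups by the length of their longest transcript (x axis, shortest to longest), and the y axis is the median log2 deviation of each liver from the locus mean. Treated mice 1 and 2 and untreated mouse 2 slope in opposite directions, from 0.12 and 0.07 against -0.07 in the shortest group to -0.08 and -0.04 against 0.11 in the longest.

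In the mice labelled Ncoa5+/- the same genes gave a median log2 fold change of 0.02 under metformin, with 27 positive and 0 at an unadjusted p under 0.05 in either direction. The background there was 452 loci higher (3.95%) and 558 lower (4.88%). The test of the difference between genotypes passed for 0 loci after adjustment (smallest adjusted p = 0.991). At an unadjusted p under 0.05 it took in 319 loci (2.79%), among them 19 of the 46 ribosomal protein genes. No difference between genotypes was thus shown at the adjusted threshold for these genes.

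Subunits of the respiratory chain, which metformin is known to act on at complex I, had small positive medians. Of 33 tested complex I genes, 26 had a positive log2 fold change, 7 had an unadjusted p under 0.05 and 7 did not overlap, all higher, with a median of 0.10. Ndufs4, an accessory subunit of complex I, stood at 69, 62.1, 58.7 and 64.5 FPKM without and 81.4, 87.5 and 73 FPKM with metformin (0.34 ± 0.10, adjusted p = 0.313). Ndufa7 stood at 328, 322, 346 and 343 FPKM against 434, 429 and 370.2 FPKM (0.29 ± 0.09), and Ndufb9 at 393, 419, 460.1 and 429.9 FPKM against 556, 534.96 and 465 FPKM (0.28 ± 0.09). The treated values of these 3 genes lay above all untreated values. Over the whole list this was not so: the median deviation of complex I genes was 0.13 and 0.11 in treated mice 1 and 2 but -0.05 in treated mouse 3, within the untreated range of -0.06 to -0.01. Without treated mouse 1, without treated mouse 2 or with the length trend removed, 4 of the 33 genes had an unadjusted p under 0.05. The list median was 0.15 without treated mouse 3, 0.06 without untreated mouse 4 and 0.01 with the length trend removed.

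Complexes II to V gave 27 positive members of 35, 9 at an unadjusted p under 0.05, all higher, and a median of 0.11. In 6 genes the treated mice lay above the untreated mice and in 2 below. Atp5b, the catalytic beta subunit of ATP synthase, stood at 1684, 1926, 1863 and 2001 FPKM without and 2237, 2977 and 2210.4 FPKM with metformin (0.39 ± 0.11, adjusted p = 0.307). Uqcrh, a subunit of complex III, showed 347, 388, 390.2 and 383 FPKM against 515, 527 and 423 FPKM (0.37 ± 0.11). The count of 9 was 16 without treated mouse 3 and 6 without treated mouse 1 or 2. The median deviation of the list was 0.13 and 0.16 in treated mice 1 and 2 but -0.07 in treated mouse 3, within the untreated range of -0.12 to -0.03. The list median was 0.18 without treated mouse 3, 0.05 under quantile normalization and 0.03 with the length trend removed.

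Of 3 tested transporters of the drug, 0 had a positive log2 fold change. Slc47a1, which exports metformin, was lower in all 3 treated mice, at 43.1, 43.3 and 40.9 FPKM against 66.1, 44.2, 52.1 and 48 FPKM (-0.29 ± 0.14, adjusted p = 0.558). Of 14 tested genes of AMPK and its upstream kinases, 5 were positive. Only 1, the regulatory subunit Prkag2, had an unadjusted p under 0.05, beside 4.55% of all loci in the lower direction. Prkag2 stood at 11.3, 10.9, 8.74 and 13 FPKM without and 7.87, 10.07 and 6.79 FPKM with metformin (-0.38 ± 0.13), and its groups overlapped. It was not under that level without treated mouse 3 or with the wild type libraries alone, and without treated mouse 1 there were 2 such genes. The catalytic subunits Prkaa1 (-0.05 ± 0.09) and Prkaa2 (0.07 ± 0.16) lay close to 0. These are mRNA levels and do not report kinase activity.

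Of 18 tested genes of gluconeogenesis and glucose output, 6 were positive and the median was -0.13, or 0.00 without treated mouse 2. The 1 gene with an unadjusted p under 0.05 was Slc37a4, 1 of 18 beside 4.55% of all loci, and there were 2 without treated mouse 2 or untreated mouse 3 and with the wild type libraries alone. Slc37a4, which carries glucose-6-phosphate into the endoplasmic reticulum for the last step of glucose output, stood at 124, 167, 143 and 123 FPKM without and 95.7, 86.1 and 107 FPKM with metformin (-0.52 ± 0.14, adjusted p = 0.288). All 3 treated mice were below all untreated mice. The rate-setting genes overlapped between the groups: Pck1 stood at 548, 1582, 1085 and 920.4 FPKM without and 1195, 504 and 1106 FPKM with metformin, and G6pc at 182, 262, 102 and 61.6 FPKM without and 235, 93.6 and 272 FPKM with it. Their log2 fold changes were -0.14 ± 0.48 and 0.46 ± 0.49, and that of Pck1 was 0.09 without untreated mouse 2 and 0.25 without treated mouse 2.

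Glycolysis genes gave 2 positive members of 18, with 3 at an unadjusted p under 0.05 and 4 without overlap, all lower, and a median of -0.18, or -0.11 without treated mouse 3. Pgam1, phosphoglycerate mutase, stood at 105, 101, 114 and 103 FPKM without and 87.5, 78.4 and 92.5 FPKM with metformin (-0.30 ± 0.08, adjusted p = 0.295). Pgk1, phosphoglycerate kinase, stood at 147, 152, 151 and 146 FPKM against 127, 130.02 and 132 FPKM (-0.20 ± 0.06). Gpi1, glucose-6-phosphate isomerase, stood at 123, 141, 139.5 and 124 FPKM against 104, 98 and 115 FPKM (-0.32 ± 0.11). Each of the 3 was lower in every treated mouse, and without untreated mouse 4 there were 5 glycolysis genes at an unadjusted p under 0.05. The aminotransferase genes that link alanine to pyruvate were lower too: Gpt stood at 229.9, 216, 255 and 207 FPKM against 168, 181 and 163 FPKM (-0.41 ± 0.12) and Gpt2 at 215, 186, 162 and 199.98 FPKM against 143, 139 and 155 FPKM (-0.38 ± 0.11). Their log2 fold changes in the mice labelled Ncoa5+/- were -0.39 ± 0.10 and -0.28 ± 0.09. Over all 27 tested genes of the urea cycle and amino acid catabolism, 5 were positive, and the median was -0.09, or -0.15 without untreated mouse 1. At an unadjusted p under 0.05 there were 2, each lower, beside 4.55% of all loci in that direction. Of 17 tested insulin signalling genes 4 were positive, among the others the kinase gene Akt2 at 50.2, 55.7, 55.7 and 59.8 FPKM without and 47.7, 43.1 and 48.3 FPKM with metformin (-0.25 ± 0.08), again without overlap. The median of insulin signalling was -0.14 with 2 genes at an unadjusted p under 0.05, 1 without treated mouse 1 or 2 and 4 without treated mouse 3. The median was -0.04 without untreated mouse 2 and -0.25 without treated mouse 3.

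**Figure D3:**
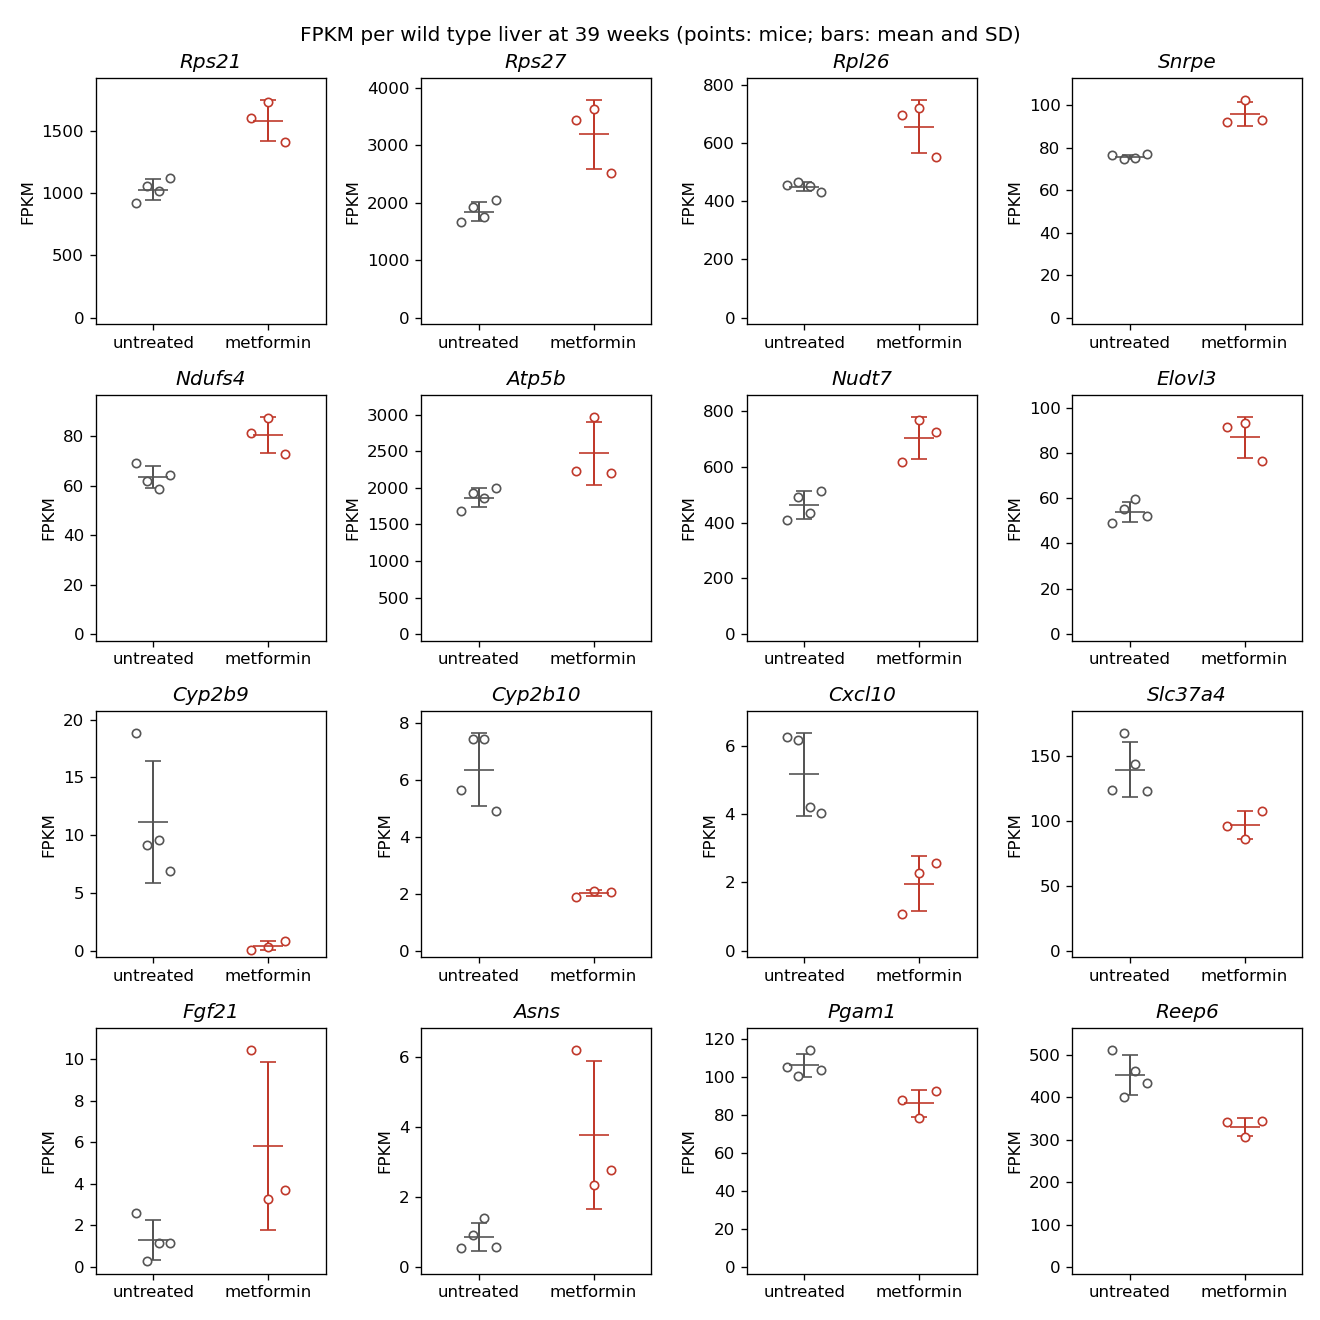
Levels of 16 genes in FPKM (y axis, from 0) in the 4 untreated and 3 treated wild type livers, with points for mice and bars for the mean and SD. In each panel the treated mice lie outside the range of the untreated mice, above it for 10 genes and below it for the other 6, and none passed the adjusted test. The 16 genes were picked with their values known, so this separation says nothing of other genes. Of all 11441 loci, 4.37% lay wholly above and 3.96% wholly below the untreated range.

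Sex-biased and growth hormone dependent genes separated in part. In the mouse liver the male pattern of growth hormone pulses acts through STAT5b and is known to raise some genes and hold others down. Of 16 tested growth hormone, STAT5 and male-biased genes, 13 were positive, 5 had an unadjusted p under 0.05 and 4 lay higher without overlap, with 0 lower, and the median was 0.54. Nudt7, a peroxisomal coenzyme A hydrolase, stood at 408, 493, 436 and 515 FPKM without and 619, 768 and 725 FPKM with metformin (0.60 ± 0.17, adjusted p = 0.307). Elovl3, a fatty acid elongase, stood at 48.9, 55.3, 59.5 and 52 FPKM against 91.3, 93.1 and 76.6 FPKM (0.68 ± 0.27), and in the mice labelled Ncoa5+/- its log2 fold change was 0.83 ± 0.22. C6, a complement component, stood at 63.8, 91.7, 65.4 and 81.8 FPKM against 117, 114 and 146 FPKM (0.73 ± 0.26). Treated and untreated mice did not overlap in these 3 genes. The log2 fold changes of Nudt7 and C6 were 0.26 ± 0.14 and 0.31 ± 0.22 in the mice labelled Ncoa5+/-, where the list median was 0.19. The count of 5 was 3 without untreated mouse 1 or treated mouse 2 and 2 without treated mouse 3, and 3 with the wild type libraries alone. Igf1, the growth hormone target that circulates as a growth factor, overlapped between the groups, at 345, 409, 449.8 and 444 FPKM against 389, 505 and 446 FPKM (0.12 ± 0.14).

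Female-biased genes lay on the other side, with 9 of 12 tested members negative, 2 at an unadjusted p under 0.05, 4 lower without overlap and a median of -0.30, or -0.17 without untreated mouse 4. Cyp2b9 (chromosome 7, 26173311 to 26217595), a cytochrome P450 that is normally higher in female liver, stood at 18.8, 9.17, 9.56 and 6.84 FPKM without and 0.0642, 0.329 and 0.832 FPKM with metformin (-3.05 ± 1.01, adjusted p = 0.373). Cyp2b10, a P450 induced through the receptor CAR, stood at 5.66, 7.46, 7.44 and 4.9 FPKM against 1.89, 2.11 and 2.07 FPKM, a ratio of means of 0.318 (-1.27 ± 0.34, adjusted p = 0.295). Cyp2a4 stood at 3.16, 1.56, 1.68 and 3.34 FPKM against 0.214, 0.137 and 0.479 FPKM (-1.39 ± 0.82). All 3 P450 genes were lower in every treated mouse. With the wild type libraries alone 4 female-biased genes had an unadjusted p under 0.05, and over a mean of at least 5 FPKM 1 did. In the mice labelled Ncoa5+/- the log2 fold changes of the 3 lower P450 genes were -1.21 ± 0.84, -0.55 ± 0.28 and -1.36 ± 0.68. The P450 genes are a family with similar sequences, so reads may be shared among them. Over 20 tested drug-metabolising P450 genes and their receptors, which include Cyp2b9 and Cyp2b10, the median was -0.11 with 1 higher and 2 lower at an unadjusted p under 0.05, and 4 lower with a pseudocount of 0.1 or the wild type libraries alone and 1 over a mean of at least 5 FPKM. The median was -0.02 without untreated mouse 2 and -0.17 without treated mouse 3. The higher one was Cyp3a11, at 1213, 1464, 1343 and 1279 FPKM without and 1466, 1744 and 1772 FPKM with metformin (0.32 ± 0.12).

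**Figure D4:**
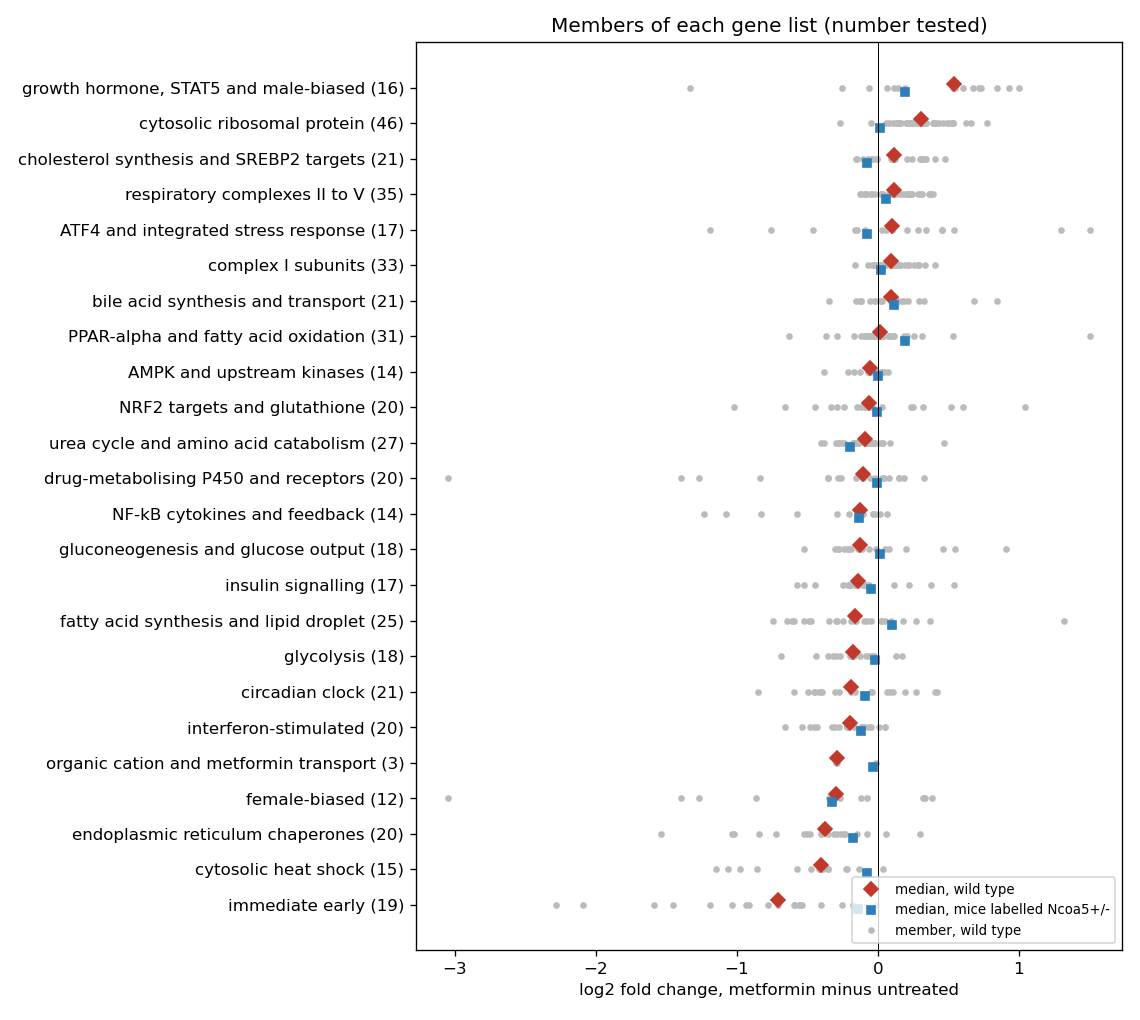
Gene lists are ordered by the median log2 fold change of metformin minus untreated in wild type mice (diamonds), with each tested member as a grey point and the median in mice labelled Ncoa5+/- as a square. Medians in wild type run from -0.71 for immediate early genes to 0.54 for growth hormone, STAT5 and male-biased genes.

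Hepatokine and amino acid genes of the ATF4 pathway were higher in a few members. Fgf21, a hormone of fasting and mitochondrial stress, stood at 2.6, 0.291, 1.17 and 1.15 FPKM without and 10.5, 3.26 and 3.7 FPKM with metformin (1.5 ± 0.65, adjusted p = 0.499). Asns, asparagine synthetase, stood at 0.552, 0.922, 1.41 and 0.566 FPKM against 6.22, 2.34 and 2.77 FPKM (1.30 ± 0.59, adjusted p = 0.516). Both were higher in every treated mouse, and treated mouse 1 was the highest in both. In the mice labelled Ncoa5+/- the log2 fold change of Fgf21 was 1.34 ± 0.54 and that of Asns -0.24 ± 0.49. The other secreted stress hormone, Gdf15, overlapped between the groups (0.46 ± 0.42, or -0.07 without treated mouse 2). Atf3, a member of the same list, had a negative log2 fold change (-1.19 ± 0.57, or -0.40 without untreated mouse 2), and its groups overlapped. Of 17 tested ATF4 genes 11 were positive, and Fgf21 and Asns were the 2 with an unadjusted p under 0.05 in the higher direction. That count was 0 without treated mouse 1 or without untreated mouse 4, and 1 without untreated mouse 1 or treated mouse 3. It was 0 with a pseudocount of 5 or over a mean of at least 5 FPKM, and 1 with array weights or quantile normalization. The median of the list was 0.10, and -0.09 over the 9 members with a mean of at least 5 FPKM.

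Genes of lipid and bile acid metabolism had list medians between -0.16 and 0.11. Of 31 tested PPAR-alpha and fatty acid oxidation genes 16 were positive, with a median of 0.02. At an unadjusted p under 0.05 there were 2, Hadhb and Fgf21, beside 4.8% of all loci in the higher direction. In the mice labelled Ncoa5+/- 30 of the 31 were positive and 13 had an unadjusted p under 0.05, all higher, beside 3.95% of all loci there. The test of the difference between genotypes had an unadjusted p under 0.05 for 1 of the 31, beside 2.79% of all loci. Its smallest adjusted p in the list was 0.991, so no difference between genotypes was shown for these genes. Hadhb, a subunit of the mitochondrial trifunctional protein, stood at 84.1, 79.2, 77 and 82.1 FPKM without and 94.4, 93.8 and 87.7 FPKM with metformin (0.19 ± 0.07). Its log2 fold change in the mice labelled Ncoa5+/- was 0.31 ± 0.06. The count of 2 became 1 with a pseudocount of 5, over a mean of at least 5 FPKM, with array weights and without any of untreated mice 2, 3 and 4 or treated mice 1 and 2, and the median turned negative, to -0.01, -0.04 and -0.04, without untreated mouse 2, untreated mouse 3 and treated mouse 1.

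Among 21 tested bile acid genes 13 were positive, 3 had an unadjusted p under 0.05, all higher, and the median was 0.09, or 0.01 without treated mouse 2. Cyp27a1, which starts the acidic route of bile acid synthesis, stood at 309, 318, 306 and 299 FPKM without and 405, 417 and 340.4 FPKM with metformin (0.32 ± 0.10). Cyp7b1, the next enzyme of that route, stood at 51.8, 136, 104 and 130.1 FPKM against 141, 165 and 243 FPKM (0.84 ± 0.35), and the treated mice lay above the untreated mice in both. Without untreated mouse 1 the log2 fold change of Cyp7b1 was 0.54. Fatty acid synthesis and lipid droplet genes gave 8 positive of 25 and a median of -0.16, or -0.28 without treated mouse 2 and -0.10 without untreated mouse 1. At an unadjusted p under 0.05 there was 1 gene of the 25, beside 4.55% of all loci in the lower direction. It was Dgat2, an enzyme of triglyceride synthesis, at 391, 497, 477 and 366 FPKM against 339.6, 336 and 376 FPKM (-0.29 ± 0.12). Dgat2 was not under that level without treated mouse 2 or untreated mouse 3. There were 2 such genes without untreated mouse 4, under quantile normalization and with the length trend removed. Cholesterol synthesis genes gave 13 positive of 21, a median of 0.11 and 0 at an unadjusted p under 0.05, against 2 without untreated mouse 1, 1 without treated mouse 3 and a median of -0.02 without treated mouse 2. Of 16 tested apolipoprotein and lipoprotein assembly genes 10 were positive, with a median of 0.03 and 2 higher and 0 lower at an unadjusted p under 0.05. Among them, Apoc1 stood at 13836, 14133, 14665 and 13067 FPKM without and 19383, 20197 and 15840.2 FPKM with metformin (0.40 ± 0.14), with no overlap. Over the processing alternatives the log2 fold change of Apoc1 ran from 0.23 to 0.57.

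Genes of the glutathione and NRF2 system gave 7 positive of 20, a median of -0.07 (-0.01 without treated mouse 3 and in the mice labelled Ncoa5+/-) and 3 lower and 1 higher at an unadjusted p under 0.05. Gsta1, a glutathione transferase, stood at 24, 16.8, 34.5 and 15.6 FPKM without and 15, 9.68 and 7.2 FPKM with metformin (-1.02 ± 0.30, adjusted p = 0.308). In the mice labelled Ncoa5+/- its log2 fold change was -0.79 ± 0.25. The count of 3 lower genes was 1 without treated mouse 3 or untreated mouse 3. Gsta1 has close relatives such as Gsta2 (-0.66 ± 0.26) with which it may share reads.

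Of 14 tested NF-kB cytokine and feedback genes 2 were positive, 3 had an unadjusted p under 0.05 and 4 did not overlap, all lower, with a median of -0.13. That median was -0.03 without untreated mouse 2, which stands apart in stress genes, and -0.23 without untreated mouse 1. Cxcl10, a chemokine induced by interferon, stood at 6.25, 6.17, 4.21 and 4.02 FPKM without and 1.06, 2.27 and 2.56 FPKM with metformin (-1.07 ± 0.28, adjusted p = 0.288). Ccl2, a chemokine for monocytes, stood at 1.43, 8, 1.77 and 1.02 FPKM against 0.441, 0.242 and 0.591 FPKM (-1.23 ± 0.37, adjusted p = 0.326), with untreated mouse 2 the highest and a log2 fold change of -0.75 without it. Both were lower in every treated mouse, and over a mean of at least 5 FPKM 0 genes of the list had an unadjusted p under 0.05. Of 20 tested interferon-stimulated genes 3 were positive and 3 had an unadjusted p under 0.05, all lower, with a median of -0.19, or -0.33 without untreated mouse 2 and -0.10 without untreated mouse 4. That count was 6 without untreated mouse 2, 1 over a mean of at least 5 FPKM and without untreated mouse 1, untreated mouse 4 or treated mouse 2, and 0 without untreated mouse 3 or treated mouse 1.

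Markers of immune and other liver cells had list medians from -0.05 to 0.14. The summed level of Kupffer cell and macrophage markers ran from 367 to 859.8 FPKM in untreated and from 444 to 567 FPKM in treated mice, with 11 of 18 tested positive and a median of 0.04. For sinusoidal endothelial markers the median was -0.01 over 17 genes and for stellate cell and matrix genes -0.01 over 17. Lymphocyte markers passed the filter in 5 of 20 cases (median 0.14, sums of 15.7 to 24.2 and 16.3 to 31.5 FPKM), neutrophil and monocyte markers in 3 of 14 (median -0.05), cholangiocyte markers in 4 of 13 (median 0.06) and erythroid markers in 6 of 13 (median 0.05). In whole liver, fewer cells of a type and less RNA per cell cannot be told apart.

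Stress-responsive genes differed mainly through untreated mouse 2. All 19 tested immediate early genes, which respond within minutes to growth and stress signals, had a negative log2 fold change, with a median of -0.71 and 3 at an unadjusted p under 0.05. Fos stood at 0.617, 76.5, 7.85 and 0.32 FPKM in the untreated and 0.43, 0.614 and 0.321 FPKM in the treated mice (-2.09 ± 0.93). Egr1 stood at 1.83, 278, 23 and 0.86 FPKM against 1.19, 5.31 and 0.612 FPKM (-2.28 ± 1.24). In both genes untreated mouse 2 was far above every other mouse, untreated mouse 3 came next, and untreated mice 1 and 4 lay in or near the treated range. Without untreated mouse 2 the median of the list was -0.27 with 1 gene at an unadjusted p under 0.05. The count was also 1 without treated mouse 1 or 2, 5 without untreated mouse 3, 10 without untreated mouse 1 or 4, 1 with the wild type libraries alone, and 5 with protein-coding loci alone or with the length trend removed. Jund, whose treated mice all lay below the untreated mice, stood at 26.6, 42.2, 31.3 and 29.2 FPKM against 25.3, 21.4 and 25.1 FPKM (-0.40 ± 0.14). In the mice labelled Ncoa5+/- the median of the list was -0.14.

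Chaperones of the endoplasmic reticulum, induced by the unfolded protein response, differed largely through the same mouse. Several carry the ER stress response element in their promoters, and the stretches of Hspa5 and Syvn1 that hold it are shown because both genes were highest in untreated mouse 2. They are on the plus strand of GRCm38.p6 (RefSeq), at chr2:34772005-34772063 for Hspa5 and chr19:6046512-6046570 for Syvn1, 5′ to 3′, with the element in capitals.
Hspa5: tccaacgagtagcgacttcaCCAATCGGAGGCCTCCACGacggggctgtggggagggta
Syvn1: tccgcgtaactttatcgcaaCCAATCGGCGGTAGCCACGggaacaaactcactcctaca
The element was searched as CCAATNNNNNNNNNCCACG on both strands of the 300 bases around each start (250 before and 50 after). It was found in 7 of the 17 tested chaperone genes with an entry in the table (41.2%) and in 0.137% of all 27025 genes.

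Hspa5, which encodes the chaperone BiP, stood at 187, 1248, 356 and 479.5 FPKM in the untreated and 172, 176 and 348 FPKM in the treated mice (-1.02 ± 0.52, adjusted p = 0.565). Syvn1, a ubiquitin ligase of the endoplasmic reticulum, stood at 15.8, 90.8, 30.04 and 35.9 FPKM against 13.3, 14.8 and 23.8 FPKM (-1.04 ± 0.48). Creld2, another gene with the element, stood at 13, 242, 44.5 and 91.3 FPKM against 17.2, 14.8 and 32.1 FPKM (-1.54 ± 0.83). The groups overlapped in all 3 genes, and treated mouse 3 lay above untreated mouse 1 in each. Of 20 tested chaperone genes 2 were positive, with a median of -0.38 and 2 lower and 1 higher at an unadjusted p under 0.05. The higher one was Sec61b, a subunit of the channel that brings proteins into the endoplasmic reticulum, at 179, 222, 204 and 207 FPKM without and 234, 278 and 239 FPKM with metformin (0.30 ± 0.11), higher in every treated mouse and with the smallest p of the list. Without untreated mouse 2 the median was -0.13 and the count of lower genes 0. Without untreated mouse 1 the count was 10, without treated mouse 3 it was 4, without untreated mouse 3 or without a variance trend it was 1, and without untreated mouse 4, treated mouse 1 or treated mouse 2, with the wild type libraries alone or without a filter it was 0. Cytosolic heat shock genes gave 1 positive of 15 and a median of -0.40, which was -0.17 without untreated mouse 2. At an unadjusted p under 0.05 there was 1 gene, Hspa4 (-0.35 ± 0.15), beside 4.55% of all loci in the lower direction. The count was 0 without untreated mouse 2, treated mouse 1 or treated mouse 2 and with the wild type libraries alone. It was 7 without untreated mouse 1, 5 without treated mouse 3 and 2 without untreated mouse 3. How the livers were taken is not described mouse by mouse in the labels, and its part was not tested.

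**Figure D5:**
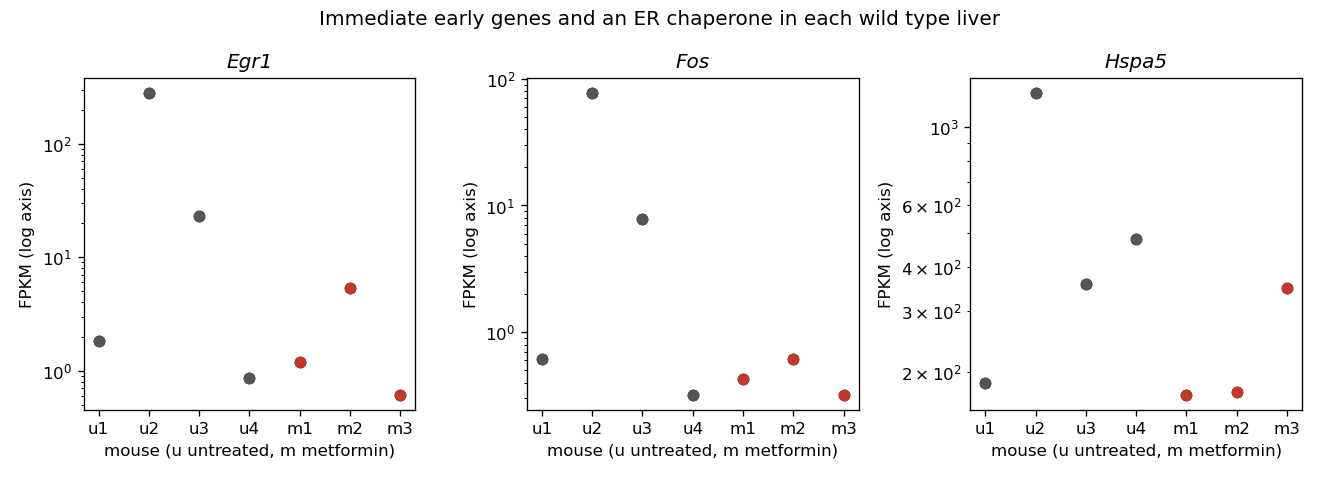
FPKM of Egr1, Fos and Hspa5 (y axis, log scale) in each of the 7 wild type livers (x axis). Untreated mouse 2 is the highest in all 3 panels, at 277.7, 76.5 and 1248 FPKM.

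Clock genes gave 7 positive of 21, 3 lower at an unadjusted p under 0.05 and a median of -0.19, or -0.11 without untreated mouse 2. Per2, a core repressor of the clock, stood at 7.99, 13, 9.49 and 9.37 FPKM without and 4.41, 3.6 and 7.75 FPKM with metformin (-0.85 ± 0.26, adjusted p = 0.33), and all treated mice were below all untreated mice. Without untreated mouse 2 the count was 1, as it was under quantile normalization, a median shift, array weights, a pseudocount of 5 and no filter. The hour at which livers were taken was not given in the sources used here, and its part was not tested.

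Cell cycle genes gave 2 positive of 14, 1 at an unadjusted p under 0.05 and 5 without overlap, all lower, with a median of -0.17. Over all loci the shares in that direction were 4.55% and 3.96%. Mcm3, the 1 gene at that level and a subunit of the replication helicase, stood at 3.18, 2.47, 2.7 and 2.36 FPKM without and 1.26, 2.15 and 1.4 FPKM with metformin (-0.51 ± 0.15, adjusted p = 0.308). Ccnd1, cyclin D1, stood at 6.88, 8.61, 7.58 and 8.16 FPKM against 5.06, 5.1 and 6.32 FPKM (-0.44 ± 0.23). Cdkn1a, the p53 target that encodes the cell cycle inhibitor p21, stood at 1.28, 2.68, 1.71 and 1.56 FPKM against 1.06, 0.684 and 0.673 FPKM, lower in all 3 treated mice (-0.62 ± 0.51, two-sided exact permutation p = 0.0571). Of 18 tested p53 targets 9 were positive and 0 had an unadjusted p under 0.05, with a median of -0.04. In 4 of them all treated mice lay below all untreated mice, beside 3.96% of all loci, and in 0 above.

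Among loci with a regular gene symbol and no overlap between the groups, the smallest unadjusted p in the higher direction belonged to Snrpe, a core protein of spliceosomal particles. It stood at 76.3, 74.8, 75.1 and 76.8 FPKM without and 92, 102 and 93 FPKM with metformin (0.33 ± 0.06, adjusted p = 0.24), and its spread among untreated mice was narrow. Its longest transcript is short, at 669 bases, and over the processing alternatives its log2 fold change ran from 0.19 to 0.36. Manba, the lysosomal beta-mannosidase, stood at 5.71, 6.4, 6.06 and 5.83 FPKM against 9.12, 7.81 and 7.52 FPKM (0.38 ± 0.08). Mbl1, a mannose-binding lectin of the complement system, stood at 159, 183, 177 and 194 FPKM against 226, 222 and 243 FPKM (0.37 ± 0.08). Evi5 stood at 22.6, 25.3, 24.1 and 24 FPKM against 34.6, 30.7 and 29.6 FPKM (0.38 ± 0.09). Log2 fold changes of the same 4 genes in the mice labelled Ncoa5+/- were 0.21 ± 0.05 for Snrpe, 0.18 ± 0.06 for Manba, 0.21 ± 0.07 for Mbl1 and 0.44 ± 0.07 for Evi5. The other 8 of the 12 genes that the rule named in this direction were ribosomal protein genes or their pseudogenes.

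In the lower direction the smallest p belonged to Reep6, which shapes membranes of the endoplasmic reticulum, at 513, 401, 462 and 433 FPKM without and 342, 306 and 344 FPKM with metformin (-0.45 ± 0.10, adjusted p = 0.264). Tcf7l2, a transcription factor of the Wnt pathway, stood at 6.93, 8.52, 10.06 and 7.08 FPKM against 4.4, 4.4 and 5.22 FPKM (-0.68 ± 0.15). Rere, a nuclear receptor coregulator, stood at 8.54, 10.2, 10.01 and 8.82 FPKM against 5.44, 5.1 and 7.61 FPKM (-0.57 ± 0.13). Mul1, a mitochondrial ubiquitin ligase, stood at 23.2, 22.8, 20.9 and 23.1 FPKM against 17.8, 17.8 and 18.6 FPKM (-0.30 ± 0.07). The splicing factor gene Sf1 stood at 45.7, 65.8, 56.1 and 49.95 FPKM against 37.6, 36.8 and 38.1 FPKM (-0.51 ± 0.13). Msl2 (-0.64 ± 0.15), Gga1 (-0.39 ± 0.09), Cherp (-0.34 ± 0.08), Mast3 (-0.56 ± 0.13), Naa38 (-0.33 ± 0.08) and Pfdn2 (-0.47 ± 0.12) were named by the same rule, and in all of them the treated mice lay below the untreated mice. The log2 fold changes of these 11 genes in the mice labelled Ncoa5+/- ran from -0.50 ± 0.13 for Tcf7l2 to -0.06 ± 0.07 for Naa38, with -0.14 ± 0.08 for Reep6, -0.14 ± 0.11 for Rere and -0.06 ± 0.06 for Mul1.

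The effect in wild type mice and that in mice labelled Ncoa5+/- come from different animals. Across 9195 protein-coding genes, which share libraries and are not independent, Pearson's r between the log2 fold changes was 0.40 and 62.4% had the same sign. Over all 11441 tested loci r was 0.16, Spearman's rho was 0.35 and 61.7% had the same sign. Over the 832 loci with a regular symbol and an unadjusted p under 0.05 in wild type mice, 85.1% had the same sign in the mice labelled Ncoa5+/-.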

How the data were processed

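Liver RNA of single mice was sequenced. Per the submitters' processing notes, the authors used Trimmomatic 0.33, TopHat2, Cufflinks and Cuffnorm with GRCm38.p5, and they deposited FPKM for every locus, 1 column per mouse, as Cuffnorm wrote it. The scaling method and strand setting are not given in the sources used here. Of 46052 loci, 14 were left out as failed estimates (listed at 0 in every mouse of 1 group, above 0 in all mice of another at a mean of 1 FPKM or more). In R 4.3.3, limma 3.58.1 (lmFit, contrasts.fit and eBayes with a trend) was run on log2(FPKM + 1) for the 17 libraries aged 39 weeks in 4 groups, keeping loci averaging 1 FPKM or more. Calls needed p under 0.05 after Benjamini-Hochberg adjustment. The fit was tested on simulated data. Replicate numbers only follow the order of the samples, and nothing states separate litters, so p-values measure the spread between these mice. Of the tested loci, 826 carry several gene names and 243 none, and list members on such loci were not counted. Transcript lengths came from GENCODE M21 and promoters from RefSeq (GRCm38.p6), matched by symbol.

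The members and gene lists were chosen with earlier results of these data known. Named genes followed a rule: the 12 regular-symbol loci with the smallest p and no overlap in each direction, the 3 members with the smallest p of each list, and a few fixed genes. It also took the 5 regular-symbol loci with the smallest p for the difference between genotypes. Some genes that the rule names are not reported here. Further list members were picked once their values had been seen. The alternatives were other pseudocounts (0.1 and 5), other filters (0.5 FPKM, 5 FPKM and none), quantile normalization, a median shift, no trend, array weights, wild type libraries alone, failed estimates kept, and each mouse left out. Protein-coding loci alone and removal of the length trend (lowess, span 0.5) were added after the data were seen.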

Additional observations from a re-analysis of the deposited data

Results flagged for a closer look

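Some genes had 1 untreated wild type mouse far from the other 3, measured as the gap to its neighbour over the whole range of the 4 log2 values. With a test at this level about 1 in 20 such groups is marked by chance, and 161 genes and 24 list sums were looked at. Those marked, all listed here, were no more than that share. The gap is relative to the range, which was narrow for Pcna and Atp5l. Untreated mouse 2 was the highest for Btg2 (a gap of 0.923 of the range, 2.27, 166, 3.32 and 3.43 FPKM), Atf3 (0.848, 0.955, 20.2, 1.81 and 1.45 FPKM) and Pcna (0.958, 19.8, 22.9, 19.9 and 19.8 FPKM). Untreated mouse 1 was the lowest for Fcgr2b (0.88, 22.4, 34.6, 32.9 and 33.5 FPKM), Uqcrh (0.853, 347, 388, 390.2 and 383 FPKM) and Atp5l (0.917, 469, 490.2, 492 and 490.0 FPKM). It was the highest for the summed level of fatty acid synthesis and lipid droplet genes (0.84, 4830.0, 2856, 3107 and 2871 FPKM). 

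Supt7l, which encodes a subunit of the STAGA coactivator complex, was lower in all treated wild type mice (3.15, 3.17, 2.68 and 2.74 FPKM without and 2.08, 2.36 and 2.28 FPKM with metformin) and higher in all treated mice labelled Ncoa5+/-. The log2 fold change was -0.28 ± 0.07 and 0.09 ± 0.06, a difference of -0.368, which did not pass the adjusted test (adjusted p = 0.991). The genes searched for opposite directions include those named for the smallest p of this difference, so such a result was in part selected for.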

How the results depend on the processing

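Over the 20 alternatives, the number of loci at an adjusted p under 0.05 in wild type mice stayed 0 except in 3. Without a filter there were 2 (Shcbp1l and A230065N10Rik), with failed estimates kept at 0 there were 2 (Scd1 and Mup3), and without treated mouse 1 there was 1 (Gm37116). All 5 loci were listed at 0 in every untreated wild type mouse. For the difference between genotypes the counts were 2 without a filter, 5 with failed estimates kept and 1 without treated mouse 1, and 0 in the rest. Leaving out each mouse in turn gave 0 to 1 loci for both tests, 360 to 727 higher and 353 to 720 lower at an unadjusted p under 0.05, and 244 to 614 for the difference between genotypes. Without a filter the unadjusted counts were 980 higher in wild type mice and 810 for the difference between genotypes, over more loci, and with a mean of at least 5 FPKM the latter was 195, over fewer. Of 86 genes given with values, 5 changed sign, in 8 of 1706 values. As each mouse was left out, the log2 fold change ran from -0.41 to 0.25 for Pck1, from -0.074 to 0.78 for Gdf15, from -0.0094 to 0.16 for Prkaa2, from -0.16 to 0.21 for Ncoa5 and from -0.10 to 0.12 for Ddx3y, which was 0.022 with array weights. The smallest adjusted p among these values was 0.0564. The ribosomal protein count ran from 24 to 33 of 46. Medians of 4 lists changed sign under some alternatives: ATF4, fatty acid oxidation, gluconeogenesis and cholesterol synthesis. No paired analysis was possible because the replicate numbers were given in sample order. Depth in reads is unknown, and 3 against 4 mice limit what the adjusted test can detect.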

Other observations

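Scd1, a fatty acid desaturase, and Mup3, a major urinary protein, were listed at 0 in every untreated wild type mouse and in every mouse labelled Ncoa5+/-, but averaged 2107 and 9639 FPKM in the treated wild type mice. Both are abundant liver genes, so these zeros were treated as failed estimates and no fold is given. The other loci left out for this reason were at 0 in mice labelled Ncoa5+/- or, for 1 unnamed locus, in treated wild type mice. They include Apoa1, at means of 8355 FPKM without and 10829 FPKM with metformin in wild type mice, Apoa2 (32410.4 and 33763 FPKM), Ttr (6588 and 6866 FPKM), Ahsg (4274 and 4419 FPKM), C3 (1707 and 1721 FPKM) and Cyp2e1 (4086 and 4596 FPKM).

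Of the 161 genes taken by the naming rule, 30 had log2 fold changes of opposite sign in the 2 genotypes, beside 4377 of all 11441 tested loci. The rule took some genes for a small p of the difference between genotypes, so opposite signs were in part selected for. Described here are 3 of the 30, chosen after their values were seen. Nat8, an acetyltransferase gene, stood at 38.9, 33.5, 42.1 and 36.4 FPKM without and 44.2, 57 and 41.9 FPKM with metformin, a log2 fold change of 0.32 ± 0.14, against -0.44 ± 0.12 in the mice labelled Ncoa5+/-. Cars, which encodes the cysteinyl-tRNA synthetase, stood at 11.6, 13.6, 11.9 and 10.02 FPKM without and 15, 14.7 and 15.4 FPKM with metformin (0.33 ± 0.09), against -0.09 ± 0.08. Tff3, a secreted trefoil peptide, stood at 1.81, 1.66, 3.19 and 2.45 FPKM without and 6.37, 19.4 and 4.69 FPKM with metformin (1.56 ± 0.94), with treated mouse 2 the highest, against -0.90 ± 0.78. None of these differences between genotypes passed the adjusted test.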
